A study of Mus musculus with 2 samples.

Results

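Mir99a, Mir99b, Mir100, Mir125a, Mir125b-1 and Mir125b-2 are the 6 mouse microRNA (miRNA) genes that accompany let-7 genes in 3 paralogous clusters. They were chosen by their gene symbols, and all 6 were found among the 1973 miRNA genes counted in the study. Small RNA of the embryonic facial prominence, the tissue that forms the face and jaws, was sequenced from the mouse strain B6NCrl at 12.5 days of embryonic development. There was 1 group, of healthy embryos of mixed sex, with 2 biological replicates. Replicate 1 was a pool of 120 embryos and replicate 2 a pool of 88 embryos. The labels give the size range of the RNA as under 30, with no unit. With 1 group there is no comparison between conditions, so the results give the levels of these genes in the tissue and how far they differed between both libraries. In bulk tissue, fewer cells of a type and less RNA per cell cannot be told apart.

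A miRNA gene is transcribed into a hairpin, from which the enzymes Drosha and Dicer cut a short duplex. A strand of this duplex, the 5p or the 3p strand, is loaded into an Argonaute protein and guides it to messenger RNAs, mainly by pairing of the seed, bases 2 to 8 of the strand. Mir125 genes are the vertebrate relatives of lin-4 and, like let-7, belong to the miRNAs first known from the timing of larval development in the nematode. miR-125 is known to target the let-7 inhibitor Lin28a, and the miR-99 and miR-100 strands are known to target Mtor, a kinase of growth control, and the chromatin remodeller Smarca5.

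The mature 5p strands are shown because they separate the genes into a pair of seed groups and show which genes a short read can tell apart. They are from RefSeq on GRCm38.p6, written 5′ to 3′ with the seed in capitals. Both mature strands were found in RefSeq for all 6 genes. Mir99a, Mir100 and Mir99b share the seed ACCCGUA, which no other strand among 1738 mature mouse strands in the RefSeq table carries.
miR-99a-5p: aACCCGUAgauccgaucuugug
miR-100-5p: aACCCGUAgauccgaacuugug
miR-99b-5p: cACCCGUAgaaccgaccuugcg

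Counted from base 1 at the 5′ end, miR-99a-5p and miR-100-5p differed at 1 of 22 bases, by U16A. miR-99a-5p and miR-99b-5p differed at 4 bases, by A1C, U11A, U16C and U21C. The longest run of bases shared by the Mir99a and Mir100 hairpins was 16 bases. No hairpin of these 3 genes shared a run of 20 bases with another of the counted miRNA genes.

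The Mir125 genes carry the seed CCCUGAG, as do Mir351, Mir6367 and Mir6394, which lie outside the 3 clusters. The strands are shown to place the genes with this seed side by side.
miR-125a-5p: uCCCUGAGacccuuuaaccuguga
miR-125b-5p, the same for Mir125b-1 and Mir125b-2: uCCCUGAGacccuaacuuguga
miR-351-5p: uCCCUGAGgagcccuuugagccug
miR-6367: uCCCUGAGacccugguucagga
miR-6394: uCCCUGAGuggggccaggucu

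The 5p strands of Mir125b-1 and Mir125b-2 were identical over all 22 bases, and the hairpins shared a run of 24 bases. Their 3p strands differ and are shown because only reads outside the shared run can be placed at 1 of these genes.
miR-125b-1-3p: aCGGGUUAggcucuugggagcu
miR-125b-2-3p: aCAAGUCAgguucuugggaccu

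The hairpins of Mir99a and Mir125b-1 are shown with both mature strands in capitals, since the counts of a gene join all reads on its hairpin.
Mir99a hairpin: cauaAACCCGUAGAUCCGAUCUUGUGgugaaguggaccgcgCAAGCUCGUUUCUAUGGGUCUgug
Mir125b-1 hairpin: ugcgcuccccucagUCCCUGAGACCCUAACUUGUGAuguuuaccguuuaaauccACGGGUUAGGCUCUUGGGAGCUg

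Replicate 1 held 4719337 reads on the own strand of miRNA genes and replicate 2 held 5929220. Levels are given as CPM, the counts of a gene per 1000000 of these counts. Reads that map to several places were 26.0% and 27.9% of all reads and were counted to no gene. Detection required 10 or more counts in each library and held for 395 genes. Of the marker lists for the tissue, 7 of 7 epithelial genes and 6 of 6 genes of mesenchyme and cartilage were detected, holding 3.33% and 6.44% of gene counts. The endothelial gene Mir126a held 2.81%. Of the other lists, 3 of 3 erythroid, 3 of 3 leukocyte, 2 of 6 neuronal, 3 of 3 eye and 4 of 7 striated muscle genes with an entry were detected. The summed share was 0.00136% for liver, 0.0277% for erythroid cells, 0.0440% for leukocytes, 0.0804% for neurons, 0.128% for eye and 0.136% for striated muscle. The neuronal gene Mir124a-1 had 0 counts in both libraries, and Mir124a-2 had 3 and 4, while Mir137 had 3746 and 4648. Of the 6 neuronal genes with an entry, 5 shared a run of bases with another miRNA gene, all but Mir137. So did 4 of 7 striated muscle genes and 3 of 6 genes of mesenchyme and cartilage. Reads wholly inside such a run are not counted, so the shares of these lists may be too low by an amount that was not tested. In replicates 1 and 2, the summed share was 3.08% and 3.58% for epithelium, 6.47% and 6.42% for mesenchyme and cartilage, and 0.0891% and 0.167% for eye. Their part in the differences between libraries given for the 6 genes was not tested.

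All 6 genes were detected, and together they held 12.9% ± 1.02 of gene counts (SD, n = 2). The share was 13.6% in replicate 1 (exact Clopper-Pearson 95% interval 13.6 to 13.7) and 12.2% in replicate 2 (interval 12.2 to 12.2). Intervals cover counting error only, and no molecular identifiers are recorded for these counts. The median level of the 6 genes was 15864 CPM, against 122 CPM over the 395 detected genes. All 6 stood above that median, and 3 were among the 20 highest genes. Reads that map to several places are missing from this share, these medians and all ranks given here. Genes with copies elsewhere may thus rank too low, by an amount that was not tested.

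Mir99a stood at 63553 and 60629.6 CPM in replicates 1 and 2, a mean of 62091 ± 2067 CPM (SD, n = 2). By counted reads, it was the second highest gene in both libraries. Mir99b stood at 35216 and 28218 CPM, a mean of 31717 ± 4948 CPM, and ranked 7 in replicate 1 and 10 in replicate 2. Its value in replicate 1 was the higher, by more than for Mir99a.

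Mir100 stood at 24528 and 23317 CPM, a mean of 23922 ± 857 CPM, with ranks 13 and 14. The 3 genes with the seed ACCCGUA thus held 12.3% of gene counts in replicate 1 and 11.2% in replicate 2 (mean 11.8% ± 0.787). Within these 3, Mir99a made up 51.5% and 54.1% of the counts, Mir99b 28.6% and 25.2%, and Mir100 19.9% and 20.8%. Mir99a and Mir100, whose 5p strands differ at U16A alone, kept nearly the same ratio to each other. Mir99a was 2.59-fold higher than Mir100 in replicate 1 and 2.60-fold higher in replicate 2. Against Mir99b, it was 1.80-fold and 2.15-fold higher.

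Among the Mir125 genes, Mir125a had the most counted reads, with 9486 and 6126 CPM in the libraries (mean 7806 ± 2375 CPM). It had the widest relative spread of the 6 genes and ranked 25 and 42 in the libraries. Mir125b-1 stood at 2887 and 2908 CPM, a mean of 2898 ± 14.6 CPM, the narrowest spread of the 6. Mir125b-2, the lowest of the 6, stood at 569.8 and 686 CPM (mean 628 ± 81.9 CPM). It was still at rank 118 of 395 detected genes.

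The values of Mir125b-1 and Mir125b-2 leave out any read that lies wholly in the run the hairpins share, since such a read maps to both genes. The copies together had 16315 counts in replicate 1 and 21307 in replicate 2. Reads that map to several places numbered 2970119 and 3575159, 182 and 168 times as many. How many of these came from miR-125b-5p was not tested, so the levels of both genes may be too low by an amount that these counts do not give. Whether Mir125a leads the Mir125 genes, and the ranks of both copies, are therefore not settled by these counts. Across all detected genes, the median level was 77.9 CPM for the 86 genes that shared a run of 20 bases with a copy and 156 CPM for the 309 that did not.

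**Figure D1:**
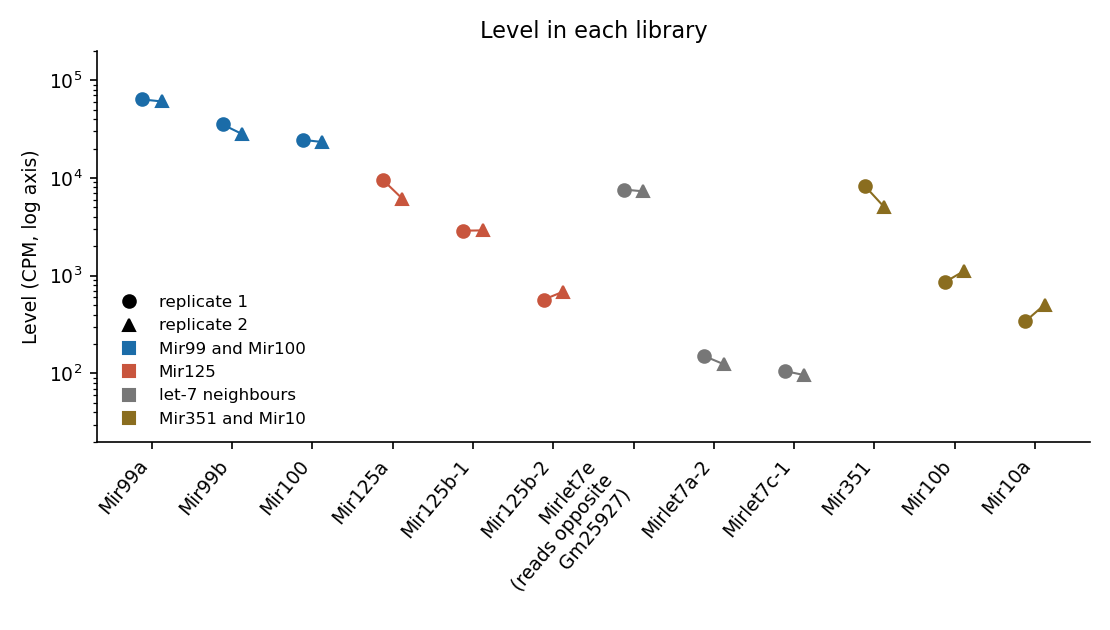
Level of each gene in CPM on a log axis, with circles for replicate 1 and triangles for replicate 2 joined by a line (for Mirlet7e, the reads opposite Gm25927). Mir99a, Mir99b and Mir100 lie at 23317 CPM or above in both libraries, and the Mir125 genes at 9486 CPM or below. The let-7 neighbours Mirlet7a-2 and Mirlet7c-1 lie between 96.5 and 151 CPM. Reads wholly inside a shared run are missing from the values of Mir125b-1, Mir125b-2, Mirlet7a-2 and Mirlet7c-1.

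In descending order the 6 genes were Mir99a, Mir99b, Mir100, Mir125a, Mir125b-1 and Mir125b-2. This order held in both libraries for all 15 pairs, and in all 15 pairs the ranges over the libraries were separate. With n = 2 there was no test of the order. The closest neighbours were Mir99b and Mir100, where Mir99b was 1.44-fold higher in replicate 1 and 1.21-fold higher in replicate 2. The lowest value of Mir99b was 28218 CPM and the highest of Mir100 was 24528 CPM, a gap smaller than the SD of Mir99b. Mir99a was 1.80-fold and 2.15-fold above Mir99b, and Mir100 was 2.59-fold and 3.81-fold above Mir125a. Mir125a was 3.29-fold and 2.11-fold above Mir125b-1, and Mir125b-1 was 5.07-fold and 4.24-fold above Mir125b-2. The places of Mir125b-1 and Mir125b-2, and all folds that involve them, rest only on reads outside the run their hairpins share. The same reads are left out in both libraries, so agreement between the libraries does not bear on this loss. CPM are not divided by length. Divided by the length of the hairpin, from 65 bases (Mir99a) to 80 bases (Mir100), the means of the 6 genes kept this order. They ran from 955 CPM per base for Mir99a to 8.84 CPM per base for Mir125b-2. Lengths this close could not turn the order of these means, so the division adds no support for it.

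**Figure D2:**
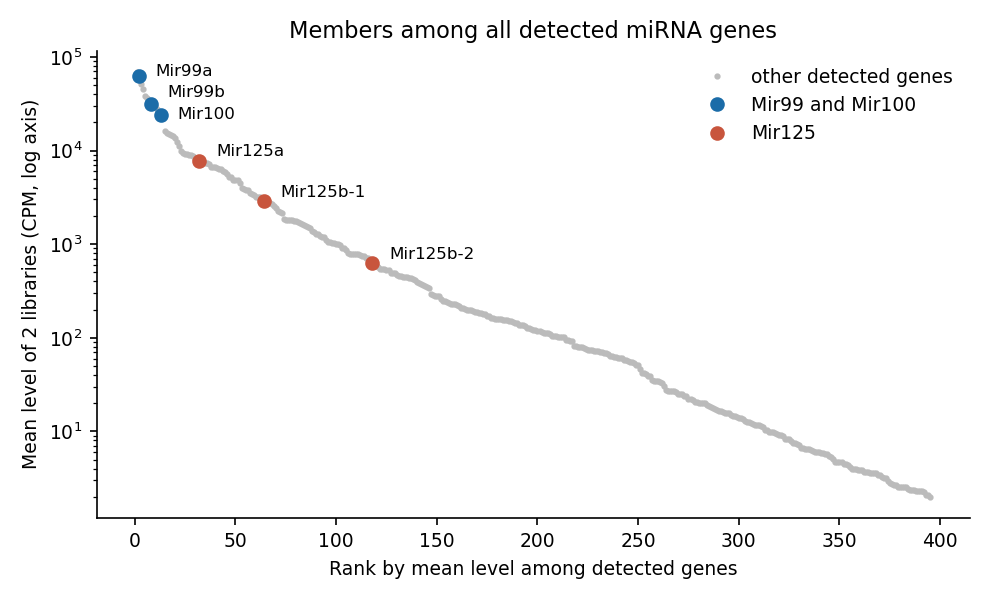
Mean level of the 2 libraries in CPM (log axis) against rank for the 395 detected miRNA genes, with the 6 genes in colour and the rest in grey. Mir99a, Mir99b and Mir100 sit at ranks 2, 8 and 13, and the Mir125 genes at ranks 32, 64 and 118. Reads that map to several places are not counted in these levels and ranks.

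By distance of log2(CPM + 1) over the 2 libraries, the gene nearest to Mir99a was Mir335, at 69100 ± 2984 CPM (distance 0.24). Mir30e was nearest to Mir100 (23562 ± 126 CPM, distance 0.07), Mirlet7i to Mir99b (33295 ± 3744 CPM, distance 0.12) and Mir342 to Mir125a (8686 ± 2917 CPM, distance 0.21). Mir532 was nearest to Mir125b-1 (2935 ± 84.3 CPM, distance 0.06) and Mir665 to Mir125b-2 (599 ± 9.65 CPM, distance 0.19). This measure covers 2 libraries and describes likeness of level only. Mir342, like Mir125a, was lower in replicate 2, at 10749 and 6624 CPM.

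Along the plus strand, each cluster starts with a Mir99 or Mir100 gene, goes on with a let-7 gene and ends with a Mir125 gene. Positions are on GRCm38, the assembly that mm10 denotes, from GENCODE M21. On chromosome 16, Mir99a (ENSMUSG00000065530.1) occupied positions 77598936 to 77599000 and Mir125b-2 (ENSMUSG00000065472.1) positions 77646273 to 77646343. Both lay in introns of the noncoding gene Mir99ahg, as did Mirlet7c-1 between them. On chromosome 9, Mir100 (ENSMUSG00000093011.1) occupied positions 41531425 to 41531504 and Mir125b-1 (ENSMUSG00000093354.1) positions 41581926 to 41582002. These genes and Mirlet7a-2 lay in introns of the noncoding genes 3110039I08Rik, which RefSeq lists as Mir100hg, and Gm49317. Mir125b-1 also overlapped an exon of Gm28119. On chromosome 17, Mir99b (ENSMUSG00000065396.1) occupied positions 17830188 to 17830257, inside an intron of Spaca6, a protein-coding gene with a known role in sperm. Mir125a (ENSMUSG00000065479.1) lay at positions 17830812 to 17830879 and overlapped an exon of Spaca6. The clusters on chromosomes 16 and 9 spanned 47408 and 50578 bases, and that on chromosome 17 spanned 692 bases.

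**Figure D3:**
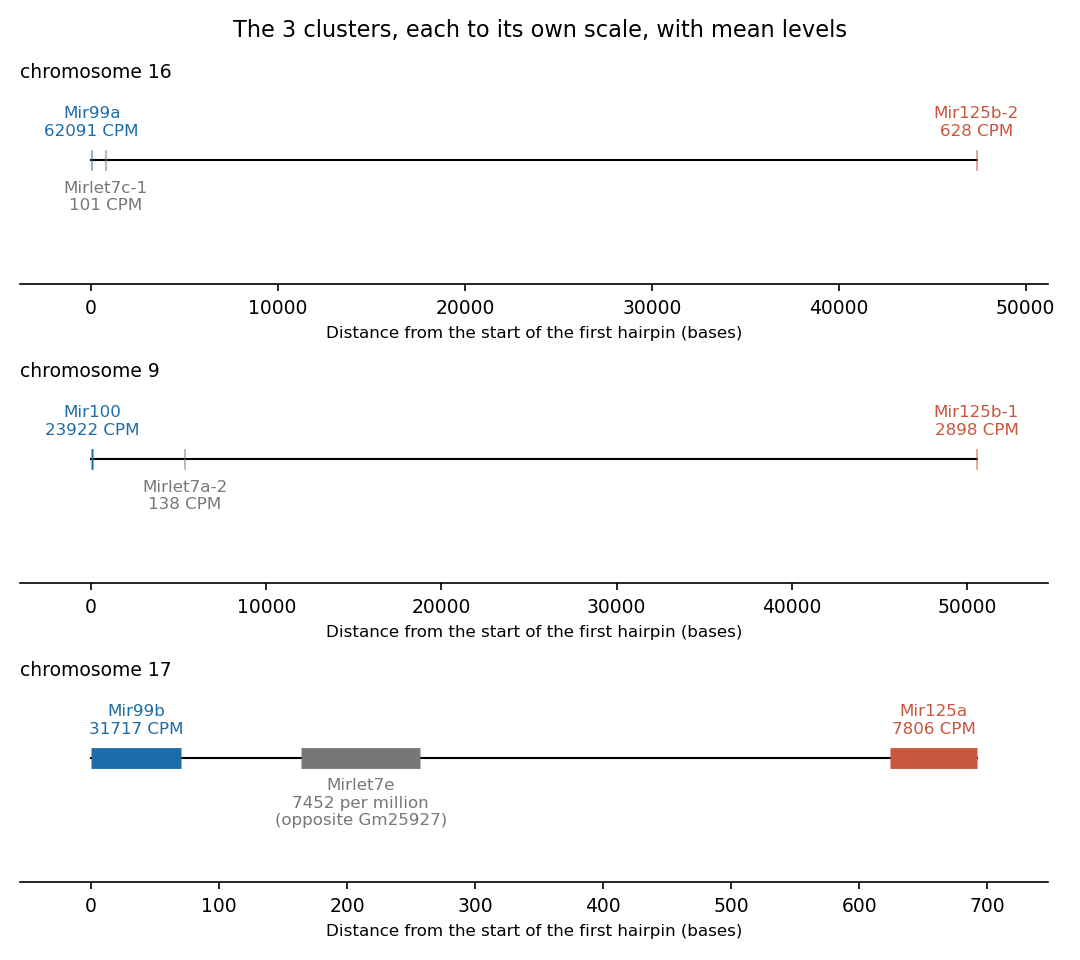
Map of the 3 clusters, each drawn to its own scale, with the distance in bases from the start of the first hairpin and the mean level of each gene over the 2 libraries. In each cluster the first gene has more counted reads than the Mir125 gene at the other end. Reads wholly in the run that Mir125b-1 and Mir125b-2 share are not counted. The cluster on chromosome 17 is far shorter, at 692 bases against 47408 and 50578.

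In all 3 clusters the first gene had more counted reads than the Mir125 gene in both libraries. On chromosome 17, where neither gene shared a run of 20 bases with a copy, Mir99b was 3.71-fold above Mir125a in replicate 1 (exact interval 3.67 to 3.75) and 4.61-fold above it in replicate 2 (interval 4.55 to 4.66). On chromosome 9, Mir100 was 8.50-fold above Mir125b-1 in replicate 1 (interval 8.35 to 8.65) and 8.02-fold in replicate 2 (interval 7.89 to 8.15). On chromosome 16, Mir99a was 112-fold above Mir125b-2 in replicate 1 (interval 107 to 116) and 88.4-fold in replicate 2 (interval 85.7 to 91.2). The folds on chromosomes 9 and 16 rest on Mir125b genes whose reads in the shared run are not counted, so they may be too high. The number of these missing reads was not tested, so the direction on chromosomes 9 and 16 is not settled by these counts. By cluster, the members on chromosome 16 were Mir99a for 99.1% of their counts in replicate 1 and 98.9% in replicate 2. On chromosome 9, Mir100 made up 89.5% and 88.9%, and on chromosome 17 Mir99b made up 78.8% and 82.2%.

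The let-7 family is known to rise as cells differentiate. Of its 3 genes in the clusters, Mirlet7c-1 and Mirlet7a-2 had fewer counts than both of their neighbours in both libraries. Mirlet7c-1, 656 bases after Mir99a, had 106 CPM in replicate 1 and 96.5 CPM in replicate 2. Mirlet7a-2, 5211 bases after Mir100, had 151 and 125 CPM. Each shared a run of 20 bases with other let-7 genes, Mirlet7c-1 with Mirlet7a-2 and Mirlet7c-2, and Mirlet7a-2 with Mirlet7a-1 and Mirlet7c-1. Reads wholly inside such a run are not counted, so these levels may be too low by an amount that was not tested.

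Mirlet7e, 94 bases after Mir99b, had no entry of its own among the counted genes. Gm25927 is annotated opposite it, at positions 17830343 to 17830459 on the minus strand. It had 0 reads on its own strand, and 35917 and 43250 reads on the strand of Mirlet7e, in replicates 1 and 2. On the scale of the other levels these reads came to 7611 and 7294 CPM (mean 7452 ± 224 CPM). They were below Mir99b in both libraries, and below Mir125a (9486 CPM) in replicate 1 but above it (6126 CPM) in replicate 2. None of the 6 genes had a read on its opposite strand in either library, which allows up to 3 counts, or 0.636 CPM in replicate 1 and 0.506 CPM in replicate 2.

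Over the let-7 list, 10 of the 14 listed genes had an entry and all 10 were detected. They held 7.23% ± 0.393 of gene counts, against 12.9% ± 1.02 for the 6 genes. The let-7 share leaves out the reads at Mirlet7e (7611 and 7294 CPM in replicates 1 and 2) and reads wholly inside a shared run. Both the let-7 share and the let-7 median level may thus be too low. Among the 6 genes, Mir125b-1 and Mir125b-2 lose reads of a shared run. The 5 let-7 genes that shared a run with a copy lay between 55.6 and 707 CPM, and the 5 that did not lay between 432 and 33295 CPM. The median log2(CPM + 1) was 9.11 for the let-7 list, 13.74 for the 6 genes and 6.94 over all detected genes.

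Among the other genes with the seed CCCUGAG, Mir351, an X-linked gene at positions 53053255 to 53053353 on the minus strand, was the only gene detected. It stood at 8284 CPM in replicate 1 and 5059 CPM in replicate 2 (mean 6672 ± 2281 CPM). Mir125a and Mir351 had the highest counts of this seed group, 44.7% and 39.0% of its counts in replicate 1 and 41.5% and 34.2% in replicate 2. Mir125b-1 made up 13.6% and 19.7%, and Mir125b-2 made up 2.68% and 4.64%, with the limit given for these copies. Mir6367 and Mir6394 had 0 counts in both libraries. The genes of this seed group together held 2.12% of gene counts in replicate 1 and 1.48% in replicate 2. The genes with the seed ACCCGUA held 12.3% and 11.2%. Reads wholly in the run that the Mir125b hairpins share are missing from the CCCUGAG share. It may thus be too low by an amount that was not tested, and the seed groups cannot be ranked by these shares. Mir670, listed with Mir351 as a relative, does not carry the seed and stood at 15.5 and 15.7 CPM.

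The Mir10 family, which lies at the Hox loci, has strands that resemble miR-99 and miR-100 and carry the seed ACCCUGU. They are shown for comparison with the strands of Mir99a and Mir99b.
miR-10a-5p: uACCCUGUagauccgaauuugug
miR-10b-5p: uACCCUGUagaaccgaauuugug

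The longest run that miR-100-5p shared with miR-10a-5p was 11 bases, and miR-99b-5p shared 10 bases with miR-10b-5p. Mir10b stood at 863 CPM in replicate 1 and 1122 CPM in replicate 2, and Mir10a at 341 and 507 CPM. Together they held 0.142% ± 0.0300 of gene counts, against 11.8% ± 0.787 for Mir99a, Mir99b and Mir100. Mir10b and Mir10a had log2 ratios of replicate 2 over replicate 1 of 0.37 and 0.56, while Mir99a, Mir99b and Mir100 were higher in replicate 1.

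The libraries came from separate pools of embryos, and a test on their reads compares these libraries, not conditions. Of the 6 genes, 0 were called different, which required a 2-fold difference and an adjusted p under 0.05 (two-sided exact binomial test, Benjamini-Hochberg adjusted over 395 genes). This call was made for 4.05% of detected genes. With no limit on size, 5 of the 6 differed beyond counting error, as did 51.9% of detected genes. Of the 6, 4 differed in this way and were higher in replicate 1, against 24.8% of all detected genes. Another 1 of the 6 was higher in replicate 2, against 27.1% of all detected genes. Among all detected genes that differed, 98 were higher in replicate 1 and 107 in replicate 2. With edgeR's exact test and a coefficient of variation between pools fixed at 0.2, the adjusted p was 1 for each of the 6 genes, and 0 of them had an unadjusted p under 0.05. Over all 395 genes this test called 2 (0.506%) and gave 20 an unadjusted p under 0.05 (5.06%), so 0 of 6 is near the background. The coefficient of 0.2 was assumed, not estimated from these pools, so the results of this test hold for that setting only.

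Mir125a differed most of the 6, with 9486 CPM in replicate 1 against 6126 in replicate 2, a log2 ratio of -0.64 (95% interval -0.66 to -0.62). By size of the ratio it was at rank 50 of the 395 genes, whose median absolute log2 ratio was 0.23. Mir99b of the same cluster was also higher in replicate 1, with a log2 ratio of -0.32 (interval -0.33 to -0.32). The reads at Mirlet7e between them gave -0.07 (interval -0.09 to -0.05), so the intervals of the 3 genes of this cluster were separate. Mir351, which carries the Mir125 seed on another chromosome, gave -0.72 (interval -0.74 to -0.70).

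Mir99a and Mir100 gave close ratios, -0.07 (interval -0.08 to -0.07) and -0.08 (interval -0.09 to -0.07), although they lie on different chromosomes. The exact binomial test, adjusted over all detected genes, gave 4.31e-92 for Mir99a and 2.54e-41 for Mir100. These p-values cover counting error only, and neither gene reached the 2-fold limit of the call. Both ratios were smaller in size than the median of 0.23 over detected genes. Mir125b-2 was the only gene of the 6 that differed beyond counting error and was higher in replicate 2. Its log2 ratio was 0.26 (interval 0.19 to 0.33, exact binomial adjusted p = 9.66e-13). Mir125b-1 had a log2 ratio of 0.0051 (interval -0.03 to 0.04, exact binomial adjusted p = 0.867), and its sign turned with counts on both strands and with a minimum of 100 counts. The neighbours Mirlet7c-1 and Mirlet7a-2 gave -0.14 (interval -0.32 to 0.03) and -0.28 (interval -0.43 to -0.13).

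**Figure D4:**
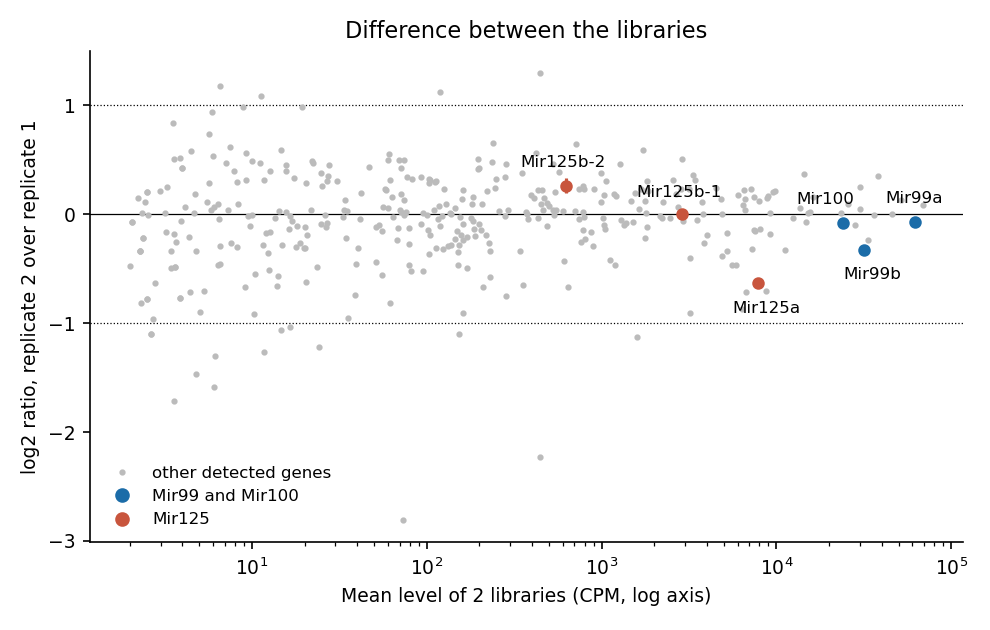
The log2 ratio of replicate 2 over replicate 1 against the mean level in CPM (log axis) for the 395 detected genes, with exact 95% intervals for counting error on the 6 genes and dotted lines at a 2-fold difference. All 6 lie inside the dotted lines, Mir125a lowest at -0.64 and Mir125b-2 highest at 0.26.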

How the data were processed

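The deposited tables of both libraries hold raw read counts (whole numbers) by miRNA gene. The notes deposited beside them name mm10 as the assembly and M4 as the GENCODE annotation. Aligner, counter and adapter trimming are not given in the sources used here. Counts on the gene's own strand were used (96.8% and 96.7% of reads on genes). The entries that name no gene were left out of library sizes: unmapped reads (25.7% and 19.4% of all reads), reads with several places (26.0% and 27.9%), reads outside the listed genes (5.57% and 4.72%) and ambiguous reads (0). GENCODE M21 gave symbols for 1894 of the 1973 genes. Runs of 20 bases shared, on either strand, between counted miRNA genes at different places were found from GENCODE M21 transcript sequences. Genes with no entry among the counts and other places in the genome were not searched.

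The 2 libraries were compared by an exact binomial test, two-sided, for each detected gene on TMM library sizes (edgeR 4.0.16, R 4.3.3), Benjamini-Hochberg adjusted, and called where the adjusted p was under 0.05 and the log2 ratio was 1 or more in size. With 1 library a side, no residual degrees of freedom remain for a quasi-likelihood fit. Tested on simulated data for this comparison, with counting error only and 200 of 395 genes changed 3-fold, 97.0% of changed genes were recovered and 0 unchanged genes were called. The simulation held no variation between pools, whereas 51.9% of detected genes differed beyond counting error in the libraries. Its result therefore covers counting error alone. Alternatives were other strand columns, denominators, DESeq2 1.42.0 size factors, count minimums and each library alone.

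The named genes are the 6 members, their let-7 neighbours, genes with the same 5p seed, Mir670, the Mir10 family, the let-7 list, genes opposite a member and the nearest gene in level. Gm25927, opposite the neighbour Mirlet7e, was added after its values were seen, and marker genes come from the fixed lists. Members and lists were chosen with earlier results of these data known.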

Additional observations from a re-analysis of the deposited data

Results flagged for a closer look

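Reads lay on the strand opposite to Gm25927, outside the own-strand counts from which the levels and tests of the 6 genes come. They numbered 35917 in replicate 1 and 43250 in replicate 2, above the 3 counts that a count of 0 allows, and they lie at Mirlet7e, which had no entry of its own. No group had the 4 samples that a search for outlying libraries needs.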

How the results depend on the processing

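With all reads of a library as the denominator, the means fell to 27188 CPM (Mir99a), 13819 CPM (Mir99b), 10474 CPM (Mir100), 3381 CPM (Mir125a), 1271 CPM (Mir125b-1) and 277 CPM (Mir125b-2), and the share of the 6 genes to 5.64%, since the denominator is larger. Over genes that share no run, Mir99a stood at 68690 CPM and Mir100 at 26465 CPM, and with both strands Mir125b-1 stood at 2803 CPM. Each library alone gave 60629.6 to 63553 CPM for Mir99a, 28218 to 35216 for Mir99b, 23317 to 24528 for Mir100, 6126 to 9486 for Mir125a, 2887 to 2908 for Mir125b-1 and 569.8 to 686 for Mir125b-2. The share of the 6 genes was then 12.2% to 13.6%, and that of Mir99a among Mir99a, Mir99b and Mir100 was 51.5% to 54.1%. The count of genes called fell from 16 to 6 with a minimum of 100 counts (277 genes tested) and to 2 with edgeR's exact test, which had 20 of 395 genes at an unadjusted p under 0.05. It was 24 with no minimum (781 genes tested), 12 over genes that share no run (309 tested), and 16 with both strands, DESeq2 size factors or no scaling. The log2 ratio of Mir125b-1 turned to -0.0060 with both strands and to -0.032 with a minimum of 100 counts. The other 38 alternatives for the ratios of the 6 genes kept sign and side of the call. Over genes that share no run the Mir125b genes give no value. No paired analysis was possible because there is 1 group. With n = 2, the spread between pools limits every comparison, whatever the depth.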
